A study of Mus musculus with 70 samples.

Results

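Proneural transcription factors and the Notch pathway were followed through 9 genes (Neurog1, Neurog2, Neurod1, Neurod4, Atoh1, Olig2, Hes5, Dll1 and Notch1) in 70 mouse RNA-Seq libraries. These 9 of the 34677 genes in the gene-level table were chosen by name. The libraries belong to an expression atlas of brain regions that govern energy balance, with some additional regions and stem cells. All are labelled C57BL/6 (C57BL/6NTac for the brain in the study's methods). They comprise 57 libraries of 18 regions from adults (P56) and 9 libraries of 4 regions from embryos (E14.5). The other 4 libraries are of the embryonic stem cell lines mESC B6-1 and mESC B6-2.

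The adult regions were the frontal pole cortex (FRP), the anterior cingulate area (ACA), the entorhinal area (ENT), the nucleus accumbens (ACB), the ventral tegmental area (VTA), 5 hypothalamic regions (ARH, VMH, DMH, PVH and LHA), 3 hindbrain nuclei (PB, NTS and DVC), 4 cerebellar lobules (CENT2, CUL4-5, UVU and FL) and the cerebellar nuclei (CBN). The study took ENT, the lobules and CBN as additional regions, not thought to act directly in energy balance. The embryonic regions were forebrain (F, 1 library), midbrain (M, 2), hindbrain (H, 3) and the terminal and peduncular hypothalamus (THy-PHy, 3). The adults were males, and no brain group is labelled with a treatment or a genetic change. Each adult library pooled punches from 3 or 4 mice, save 1 ACB library from 1 mouse, and each embryonic library pooled 4 embryos. Adult mice and embryos each gave tissue to several regions, so libraries of different regions are not independent animals. Each mESC line was 1 clone, harvested off feeder cells in medium with LIF, CHIR-99021, CI-1040 and PD0325901, and its RNA was extracted with another kit than the brain RNA. Age and dissection changed together between adult and embryonic groups and cannot be told apart.

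Total estimated counts ran from 9025702 in the first H library to 22079264 in F. A gene at 0 could still have had up to 3 counts, which is 0.136 to 0.332 CPM (counts scaled to a common library total), for counting error only. Marker genes went with the labels: 5 pluripotency genes summed to 2128 to 2159 TPM (a level per transcript length, scaled to the same total in every library) in mESC and at most 274 elsewhere, and 5 myelin genes summed to at most 40.1 TPM in embryonic and at least 579 in adult libraries. The mitochondrial share of TPM was 39.6% in the first VTA library and 22.6% in the first H library, against a median of 7.49%.

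Proneural factors are basic helix-loop-helix (bHLH) proteins that pair with E proteins, bind E-box sequences and commit a progenitor to the neuronal fate. They also switch on Delta ligands, which activate Notch receptors on neighbouring cells, where the cleaved receptor joins RBPJ and turns on repressors of the Hes family that hold the neighbour as a progenitor. Neurod factors act after this choice, and Olig2 directs motor neuron and oligodendrocyte fates.

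The sequences below show where letters of such binding sites lie upstream of a Notch target (Hes5), a proneural gene (Atoh1) and a ligand (Dll1). Each is the 250 bases before an annotated start, 5′ to 3′ along the strand of the gene, from RefSeq on GRCm38.p6, and all 9 genes had such a window. Capitals mark GTGGGAA, the core of the RBPJ site, in Hes5 (chr4:154960673-154960922, plus strand), CACGCG, the class C site bound by Hes repressors, in Atoh1 (chr6:64728875-64729124, plus strand), and CANNTG, the E-box, in the outer of the 2 windows of Dll1 (chr17:15376933-15377182, minus strand). Both strands were searched, so a match may read as its reverse complement.
Hes5: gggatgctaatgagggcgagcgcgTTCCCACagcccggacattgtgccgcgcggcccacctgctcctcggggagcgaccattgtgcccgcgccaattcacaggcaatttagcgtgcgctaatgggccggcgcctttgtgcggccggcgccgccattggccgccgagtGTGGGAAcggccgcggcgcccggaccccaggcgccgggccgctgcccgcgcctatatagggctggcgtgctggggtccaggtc
Atoh1: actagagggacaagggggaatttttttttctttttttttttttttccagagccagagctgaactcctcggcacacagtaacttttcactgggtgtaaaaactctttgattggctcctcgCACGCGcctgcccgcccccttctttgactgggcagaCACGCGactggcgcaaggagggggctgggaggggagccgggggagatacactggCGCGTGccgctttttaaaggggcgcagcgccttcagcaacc
Dll1: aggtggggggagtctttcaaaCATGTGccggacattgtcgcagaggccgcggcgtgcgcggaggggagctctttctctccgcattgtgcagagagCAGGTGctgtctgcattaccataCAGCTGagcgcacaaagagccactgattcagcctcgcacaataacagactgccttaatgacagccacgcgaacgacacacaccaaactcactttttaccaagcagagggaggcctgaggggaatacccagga
The Hes5 window held 2 matches to GTGGGAA, 1 on each strand, whose first bases lay 226 and 83 bases before the start. Of all 32851 windows 5.42% held at least 1 match and 0.161% held 2 or more, and no other window of the 9 genes held one. Atoh1 held 3 matches to CACGCG, where 7.62% of windows held at least 1 and 1.27% at least 2. Neurod1 and the outer Dll1 window held 1 each. The outer Dll1 window held 3 E-boxes, where 66.2% of windows held at least 1 and 31.8% at least 2. The N-box CACNAG, another Hes site, was in 36.7% of windows, among them that of Notch1 and the 2 overlapping windows of Neurod4. No match overlapped one of another motif, and a match describes letters only.

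**Figure D1:**
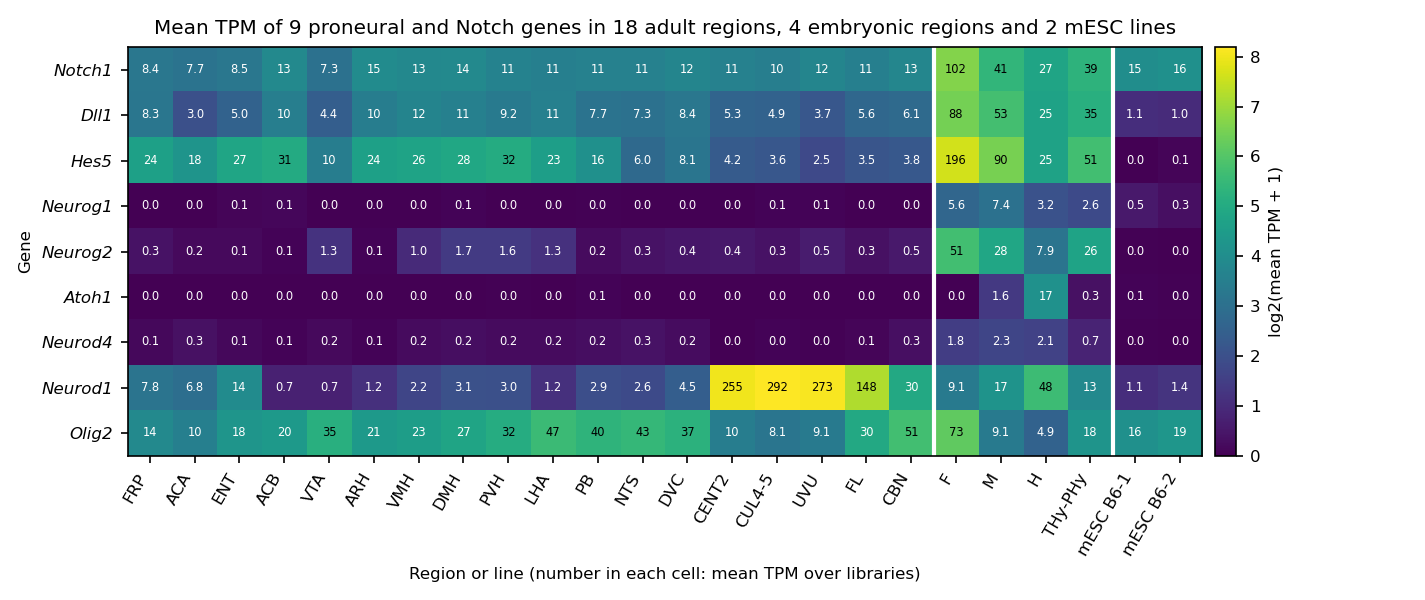
Mean TPM of the 9 genes (one line of cells per gene) in the 24 groups (columns), coloured by log2(mean TPM + 1) with the mean printed in each cell. Notch1, Dll1 and Hes5 peak in F at 102, 88.2 and 196 TPM, Atoh1 peaks in H at 16.5 TPM, and Neurod1 reaches 292 TPM in CUL4-5.

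The embryonic regions were compared with the adult regions to ask which of the 9 genes belong to the developing brain. Of the 9, 7 were called higher in the embryo and 0 lower. A gene was called where the edgeR quasi-likelihood test gave an adjusted p below 0.05 together with a log2 fold change beyond 1 in either direction. Of the 19980 genes tested, 17.9% were called higher and 19.9% lower, and all 9 genes passed the filter on low counts. The 9 genes had a median log2 fold change of 2.73, where that of all genes was close to 0. In bulk tissue, fewer cells of a type and less RNA per cell cannot be told apart. Cell type markers moved with the stages: all 5 cycling, all 6 radial glia and all 4 fibroblast markers were called higher in the embryo, and all 4 mature neuron and all 5 astrocyte markers lower. The cycling markers summed to 157 to 1168 TPM against 1.08 to 24.2, and the part of these markers was not tested.

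Notch1, the receptor, was at 102 TPM in F, 38.9 and 42.4 in M, 17.7, 30.7 and 31.4 in H, and 45.4, 42.2 and 28.3 in THy-PHy. The 57 adult libraries ran from 4.08 to 16.1 TPM with a median of 10.8, so every embryonic library lay above every adult one. The log2 fold change was 2.08 ± 0.05 (SE; adjusted p = 1.38e-39, edgeR). Dll1, a Delta ligand presented by cells entering neurogenesis, was at 88.2 TPM in F, 40.4 and 64.8 in M, 10.9, 25.6 and 39.3 in H, and 42.9, 34.7 and 27.1 in THy-PHy. The adult libraries ran from 1.95 to 15.1 TPM with a median of 6.88, and the first H library was the one embryonic library inside that range. Dll1 rose by 2.73 ± 0.08 on the log2 scale (adjusted p = 8.62e-35, edgeR).

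Hes5, a direct target of Notch and the gene with the paired RBPJ letters printed above, was at 196 TPM in F, 65.2 and 115 in M, 3.26, 30.5 and 41.9 in H, and 81.4, 45.6 and 25.6 in THy-PHy. The adult libraries ran from 1.11 to 35.5 TPM. The first and second H libraries and the third THy-PHy library lay inside the adult range, while F stood above all other libraries. The log2 fold change was 2.38 ± 0.17 (adjusted p = 1.68e-18, edgeR).

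**Figure D2:**
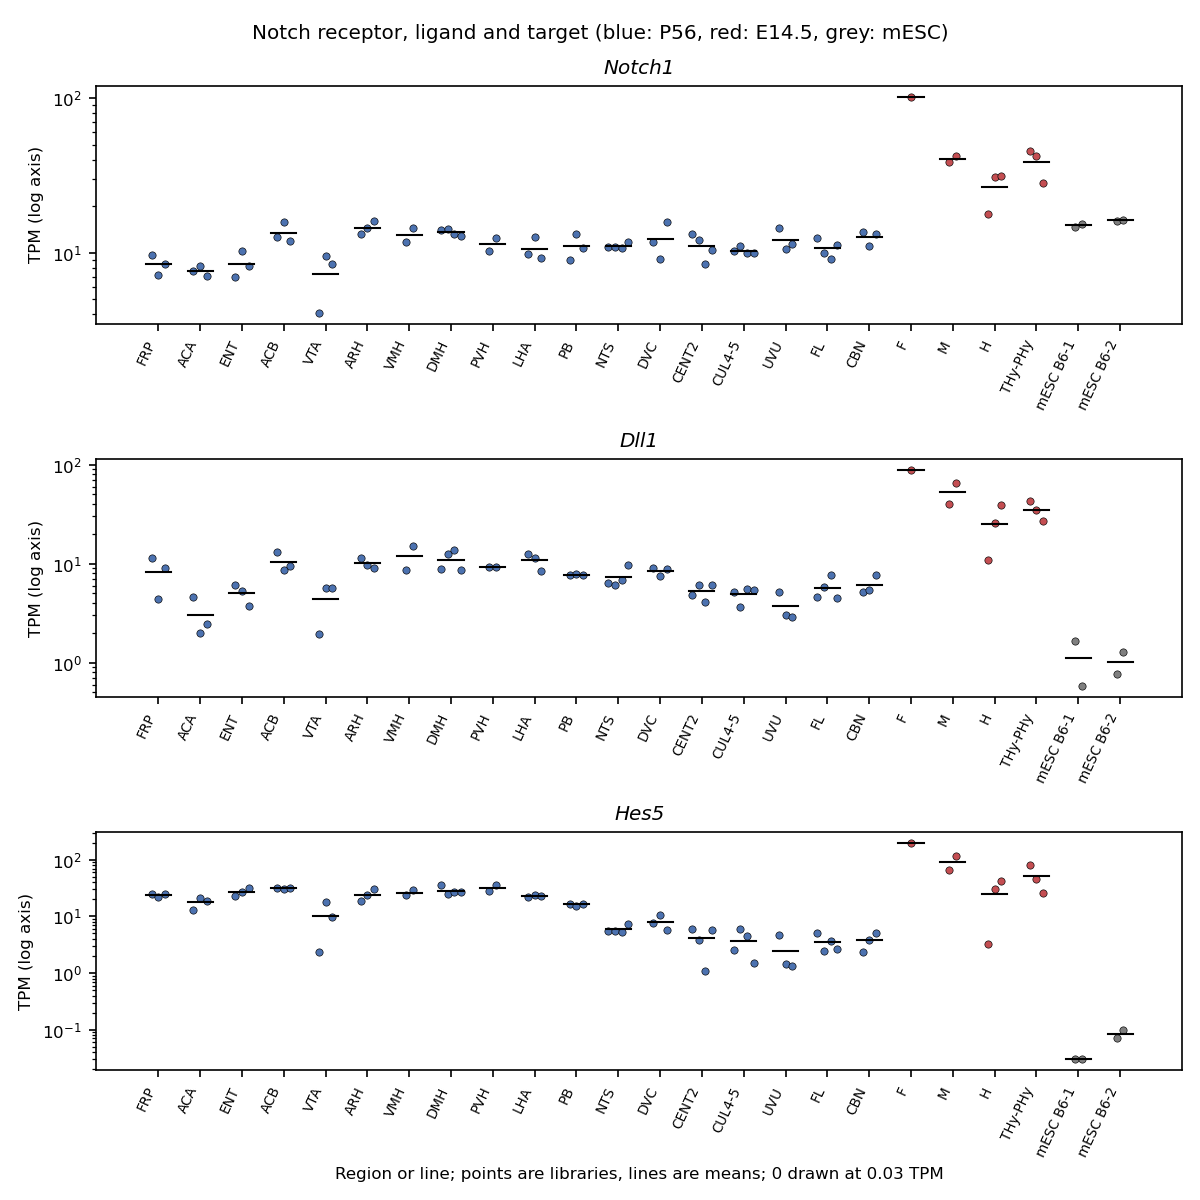
TPM of Notch1, Dll1 and Hes5 on log axes in every library (points; blue adult, red embryonic, grey mESC) with group means (lines); libraries at 0 are drawn at 0.03. Adult Notch1 stays between 4.08 and 16.1 TPM while adult Hes5 spans 1.11 to 35.5, and no mESC library exceeds 0.0988 TPM of Hes5.

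Neurog1, a proneural bHLH factor, was at 5.56 TPM in F, 6.11 and 8.64 in M, 0.555, 7.07 and 1.88 in H, and 2.94, 3.84 and 0.940 in THy-PHy. It was at 0 in 43 of the 57 adult libraries and never above 3 counts (0.221 TPM), so the stages did not overlap. It was called (adjusted p = 5.25e-20, edgeR), but its fitted fold against libraries at the limit of detection depends on the prior count and is not given. Neurog2, which drives glutamatergic neurogenesis in the cortex, was at 51.5 TPM in F, 19.5 and 35.6 in M, 5.17, 9.42 and 9.13 in H, and 39.8, 24.4 and 14.53 in THy-PHy. The adult libraries reached 1.97 TPM with a median of 0.377, and 16 of the 57 were at or under 3 counts, so here too the stages were apart. The log2 fold change was 5.83 ± 0.16 (adjusted p = 1.73e-36, edgeR).

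Atoh1, the factor of rhombic lip progenitors that give rise to cerebellar granule neurons, was highest in H. It was at 21.6, 8.26 and 19.7 TPM in H, 1.20 and 1.99 in M, 0.778, 0.0497 and 0.0487 in THy-PHy, and 0 in F. It was at 0 in 52 of the 57 adult libraries, and the highest adult library, of PB, held 0.123 TPM from 2 counts. With F at 0 the contrast over the 4 embryonic regions had no usable error (adjusted p = 1.00, edgeR), and without F it was called (adjusted p = 9.02e-12). H held 88.7% of its summed group means. Neurod4, a factor of newborn neurons, was low throughout, at 1.84 TPM in F, 1.85 and 2.75 in M, 0.836, 3.63 and 1.72 in H, and 0.613, 1.46 and 0.149 in THy-PHy. The highest adult library held 0.437 TPM, and the third THy-PHy library was the one embryonic library below it. Neurod4 rose by 3.62 ± 0.24 on the log2 scale (adjusted p = 8.21e-20, edgeR).

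Neurod1, which drives neuronal differentiation and stays on in granule neurons, did not divide by stage. The 9 embryonic libraries ran from 9.14 to 65.6 TPM (median 16.5) and the 57 adult libraries from 0.0451 to 318 (median 4.72), of which the 15 lobule libraries held 103 to 318. The contrast of region means on the log scale was called higher in the embryo at 1.09 ± 0.16 (adjusted p = 4.57e-08, edgeR), although the mean of the adult regions in TPM was the larger, at 58.3 against 22.1. With the libraries of each stage pooled the log2 fold change was -1.16 (adjusted p = 0.309), and it fell under the fold limit without the first H library (0.96) or the second M library (0.99). Olig2 ran from 0.925 TPM in H to 72.9 in F among embryonic libraries and from 6.44 to 62.3 among adult ones. Its log2 fold change of -0.60 ± 0.13 was not called, and without F it was -1.31 (adjusted p = 5.66e-12, edgeR) and past both limits.

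The mESC lines were set against the same embryonic libraries, and 7 of the 9 genes were called lower and 0 higher, where 26.8% of all genes were called higher and 29.0% lower. Their median log2 fold change was -3.50, against one close to 0 over all genes. Hes5 had 0, 0, 1 and 1 counts in the 4 mESC libraries. The 5616 embryonic counts against these 2 gave a ratio of 1280 after scaling to library totals, with an exact 95% interval of 354 to 10600 for counting error only. Neurog2 had 3 mESC counts, a ratio of 690 (236 to 3350). Dll1 was at 1.65, 0.579, 0.759 and 1.27 TPM, below all embryonic libraries, at a log2 fold change of -5.50 ± 0.23 (adjusted p = 3.82e-28, edgeR). Neurod1 was at 0.976 to 1.57 TPM (-3.50 ± 0.36, adjusted p = 7.86e-13).

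Notch1 and Olig2 were well expressed in mESC. Notch1 was at 14.7, 15.3, 16.1 and 16.3 TPM, below every embryonic library, with both mESC B6-2 libraries just above the adult maximum, and was called lower at -1.32 ± 0.10 (adjusted p = 5.44e-18, edgeR). Without F the difference was -0.90, under the fold limit. Olig2 was at 15.7, 17.0, 18.7 and 18.7 TPM, inside the embryonic range. Its log2 fold change of 0.56 ± 0.20 was not called, and without F it was called higher (adjusted p = 3.06e-08). The oligodendrocyte precursor genes Pdgfra, Cspg4, Gpr17 and Sox10 summed to only 0.471 to 0.835 TPM in the same libraries. Neurog1 was called lower at -3.22 ± 0.66 (adjusted p = 5.06e-05) but was still detected, at 0.154 to 0.619 TPM. Neurod4 had 4 counts over the 4 libraries and was called lower (adjusted p = 3.32e-10). Atoh1 also had 4 counts, and it was not called with F at 0 (adjusted p = 1.00) and was called lower without F (adjusted p = 1.34e-05).

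H and THy-PHy were compared as the 2 embryonic regions with 3 libraries each, and 5 of the 9 genes were called, 3 higher and 2 lower in H. The background was 4.35% of genes called higher and 1.94% lower. The median log2 fold change of the 9 was -0.28, and in the comparisons of M with THy-PHy and with H it was 0.23 and 0.59, again beside medians of all genes close to 0. Atoh1 was higher by 6.11 ± 0.85 on the log2 scale (adjusted p = 4.01e-05, edgeR), with all H libraries above all THy-PHy libraries. DESeq2 gave 6.22 with an adjusted p of 0.331. Neurod1 was at 65.6, 45.4 and 34.0 TPM in H against 10.96, 16.5 and 12.7, without overlap, and rose by 2.10 ± 0.35 (adjusted p = 1.61e-05, edgeR). Neurod4, whose libraries overlapped, was higher by 1.63 ± 0.58 (adjusted p = 0.0371, edgeR). Its call was lost without the second H library (0.89) and without the first or the third THy-PHy library (1.47 and 1.16).

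Neurog2 and Olig2 were lower in H, both without overlap. Neurog2 was at 5.17 to 9.42 TPM against 14.53 to 39.8, a log2 fold change of -1.55 ± 0.40 (adjusted p = 0.00383, edgeR), and the call was lost without the first THy-PHy library (-1.22, adjusted p = 0.0751). Olig2 was at 0.925, 7.88 and 5.91 TPM against 24.7, 18.5 and 10.5 (-1.69 ± 0.28, adjusted p = 1.61e-05, edgeR). The oligodendrocyte precursor markers summed to 69.0, 19.5 and 37.1 TPM in H and to 26.2, 20.2 and 34.4 in THy-PHy. The first H library thus had the lowest Olig2, on 15 counts, and the highest sum of these markers, and their part was not tested. That library also had the lowest total count and a mitochondrial share of 22.6%. The 3 Notch genes and Neurog1 were not called, with Hes5 at -1.09 ± 0.42 (adjusted p = 0.0539) and Dll1 at -0.89 ± 0.21 (adjusted p = 0.0015), under the fold limit. Dll1 passed both limits without the third H library (-1.09) or the third THy-PHy library (-1.04), and Hes5 did so without the third H library (-1.69) or the second or the third THy-PHy library (-1.35 and -1.47). Choroid plexus genes moved with these differences: 3 of 4 were called higher, and they summed to 582 to 1952 TPM in H and 4.73 to 6.95 in THy-PHy. None of the 5 granule neuron markers was called, and Gabra6, which marks mature granule neurons, was at most 0.202 TPM in H. The part of the choroid plexus was not tested.

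**Figure D3:**
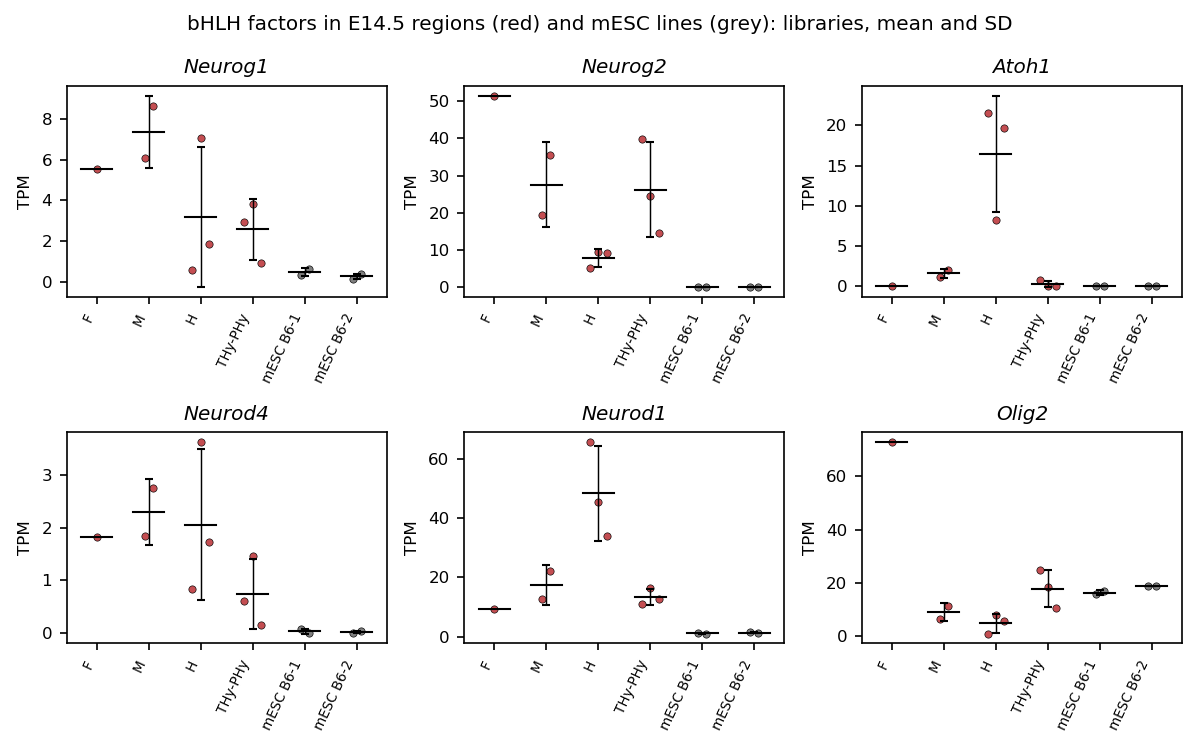
TPM of 6 bHLH factors in the libraries (points) of the 4 embryonic regions (red) and the 2 mESC lines (grey), with the mean (line) and SD (bar); F is 1 library. Atoh1 is at 8.26 to 21.6 TPM in H and at most 1.99 elsewhere, Neurod1 is highest in H, and Neurog2 and Olig2 are highest in F.

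M differed from H in 5 of the 9 genes, 3 higher and 2 lower, against a background of 2.51% higher and 6.02% lower, and this comparison shares the H libraries with the one before. Hes5 was at 65.2 and 115 TPM in M against 3.26, 30.5 and 41.9 in H, and was higher by 2.20 ± 0.46 (adjusted p = 5.04e-04, edgeR). Dll1 (1.06 ± 0.23, adjusted p = 6.55e-04) and Neurog2 (1.52 ± 0.43, adjusted p = 0.00649) were also higher in M. All 3 were without overlap. In the comparisons between embryonic regions, with 2 or 3 libraries each, a lack of overlap can arise by chance. It is a description only, and its share over all genes is not given. The calls of Dll1 and Neurog2 were lost without the first H library (0.83 and 1.41), the one with the high mitochondrial share, and without the second M library (0.81 and 0.98). Neurod1, at 12.7 and 22.3 TPM in M, was lower, at -1.87 ± 0.41 (adjusted p = 7.06e-04, edgeR). Atoh1 was lower at -3.73 ± 0.87 (adjusted p = 0.00378), where DESeq2 gave an adjusted p of 0.631. Neurog1 (2.39) and Olig2 (1.14) were called higher in M without the second H library. Of the cell type markers, 2 of 4 of oligodendrocyte precursors, 2 of 4 of Bergmann glia and 1 each of cycling cells, granule neurons, endothelium and fibroblasts were called lower in M, and 1 of 5 of astrocytes and 1 of 5 of pluripotent cells higher. The Bergmann glia markers summed to 93.8 to 106 TPM in M and 108 to 220 in H. The first and second M libraries differed in choroid plexus genes, with sums of 28.7 and 1675 TPM, and in fibroblast markers, with 922 and 210. In H these sums were 582 to 1952 and 492 to 999 TPM, and the part of these markers was not tested.

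In M against THy-PHy 0 of the 9 genes were called higher and 1 lower, where 1.40% of all genes were called higher and 1.82% lower. The gene was Olig2, at 6.63 and 11.5 TPM in M against 24.7, 18.5 and 10.5, so the regions overlapped (-1.10 ± 0.31, adjusted p = 0.0204, edgeR). Of the 4 oligodendrocyte precursor markers 2 were called lower too, with sums of 10.99 to 18.8 TPM in M against 20.2 to 34.4, and their part was not tested. The Olig2 call was lost without the first M library (-0.72) and without THy-PHy library 1 or 2 (-0.88 and -1.05). Neurog1, Neurod4 and Atoh1 had higher values in M, at 1.40 ± 0.77, 1.495 ± 0.63 and 2.38 ± 0.84, and were not called. Their lack of overlap is again a description only. Atoh1 (4.64) and Hes5 (2.06) were called without the first THy-PHy library, and Neurod4 (2.52) without the second. In fits with the libraries of only the 2 regions compared, 1 gene was called in H against THy-PHy (Atoh1), 0 in M against H and 0 in M against THy-PHy.

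**Figure D4:**
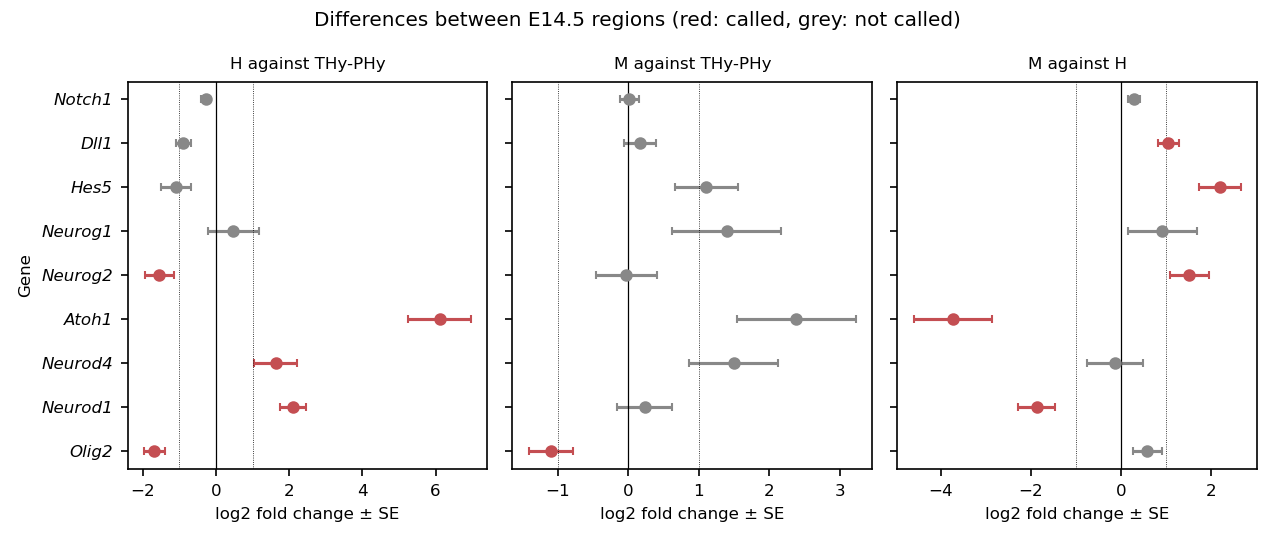
Log2 fold changes with their SE for the 9 genes in the 3 comparisons between embryonic regions with replicates; red points passed both limits, and dotted lines mark a log2 fold change of 1 in either direction. Notch1 lies between -0.28 and 0.30 in all 3, and Atoh1 is the farthest from 0 in each.

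F, with 1 library, entered no comparison of single regions. It had the highest value of all 70 libraries for Notch1, Dll1, Hes5, Neurog2 and Olig2, and it was below every other embryonic library for Neurod1, at 9.14 TPM, and for Atoh1. The ratio of Neurog2 to Neurog1 in TPM was 9.25 in F, 3.19 and 4.12 in M, 1.33 to 9.32 in H and 6.35 to 15.5 in THy-PHy. Cycling genes summed to 1168 TPM in F against 157 to 309 in the other embryonic libraries, and their part in the F values was not tested.

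In the adult brain Notch1 was nearly even across regions while Hes5 was not. Each anatomical group was compared with the mean of the other adult regions, so the 7 comparisons share libraries. Notch1 was called in none of them, with log2 fold changes from -0.40 to 0.36, and neither was Dll1, from -0.81 to 0.70. Some of these were under the fold limit alone, with an adjusted p below 0.05 (edgeR). For Notch1 they were the cortical regions (-0.40, adjusted p = 1.51e-08), the hypothalamus, CBN and ACB. For Dll1 they were the lobules (-0.81, adjusted p = 1.02e-11), the hypothalamus (0.58, adjusted p = 2.83e-08) and ACB (0.70, adjusted p = 9.16e-05). Hes5 was at 19.1 to 35.5 TPM in the hypothalamus, 30.5 to 31.8 in ACB and 12.9 to 31.2 in the cortical regions. It was at 5.41 to 16.9 TPM in the hindbrain nuclei, 2.36 to 5.17 in CBN and 1.11 to 5.93 in the lobules. The lobules and CBN lay below all hypothalamic, cortical and ACB libraries. Hes5 was called higher in the hypothalamus (1.68 ± 0.16, adjusted p = 3.00e-13, edgeR), ACB (1.53 ± 0.27, adjusted p = 4.52e-06) and the cortical regions (1.31 ± 0.18, adjusted p = 8.31e-09). It was called lower in the lobules (-2.69 ± 0.21, adjusted p = 1.14e-16) and in CBN (-1.65 ± 0.39, adjusted p = 5.44e-04). With the cortical libraries and the other adult libraries pooled as 2 groups the cortical value was 0.87 and not called. The low cerebellar regions are part of the other adult regions in these comparisons. Over all adult libraries outside the cerebellum the median of Hes5 was 22.55 TPM. It was 22.55 in the cortical regions, 25.6 in the hypothalamus and 31.3 in ACB. The ratio of Hes5 to Notch1 in TPM was 1.46 to 3.79 in hypothalamic, cortical and ACB libraries and 0.119 to 0.548 in lobule and CBN libraries.

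In these adult comparisons the median of the 9 lay between -0.17 and 0.34 and that of all genes within 0.033 of 0. The lobules had 1 of the 9 genes higher and 3 lower, against 8.20% and 9.75% of all genes. The higher one was Neurod1, at 169.9, 234, 317 and 299.9 TPM in CENT2, 270.3, 297, 311 and 289 in CUL4-5, 208, 318 and 294 in UVU, and 182, 154, 152 and 103 in FL. No other adult library exceeded 44.4 TPM, and the log2 fold change was 6.02 ± 0.13 (adjusted p = 1.71e-39, edgeR). The 5 granule neuron markers were all called higher too, and summed to 1125 to 3063 TPM against 52.5 to 601.5 in other adult libraries. Their part in the Neurod1 value was not tested. The lower ones were Hes5, Olig2 (-1.30 ± 0.11, adjusted p = 7.85e-16, edgeR) and Neurod4, with 19 counts over the 15 libraries. Neurod4 was at or under 3 counts in 14 of them, and its call was lost with limma on log2(TPM + 0.1) and log2(TPM + 0.5), at -0.96 and -0.33. Of the 4 oligodendrocyte precursor markers 3 were called lower, with sums of 27.7 to 94.95 TPM against 50.4 to 154, and their part in the Olig2 value was not tested. All 4 Bergmann glia markers were called higher in the lobules. Their part and that of the granule neuron markers in the Hes5 value was not tested. FL differed from the other lobules in Olig2, at 23.5 to 34.6 TPM against 6.44 to 15.5, and its myelin genes summed to 8151 to 11110 TPM against 1158 to 3443.

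CBN had 3 genes higher and 1 lower, against 7.86% and 2.89%. Neurod1 was at 17.0, 28.7 and 44.4 TPM, below every lobule library and above every adult library outside the cerebellum, which reached 16.6 (2.04 ± 0.21, adjusted p = 3.09e-11, edgeR). Olig2 was at 46.5, 44.9 and 62.3 TPM, overlapping other adult regions (1.32 ± 0.16, adjusted p = 2.02e-09, edgeR). Neurod4 was higher on 8, 7 and 11 counts (1.24 ± 0.46, adjusted p = 0.0258, edgeR), a call lost without the first or the third CBN library and on both limma scales. In CBN 3 of 5 granule neuron markers were called higher (sum 349 to 601.5 TPM), as were all 5 myelin genes and all 4 choroid plexus genes (sum 3501 to 12550 TPM), and their parts were not tested.

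Olig2 was present in every adult library. The hindbrain nuclei had 2 genes higher, Olig2 and Neurod4 (1.23 ± 0.30), and 1 lower, Neurod1 (-1.62 ± 0.20), against 5.18% and 2.67%. The Neurod4 call was lost with 2 pooled groups (0.95, adjusted p = 0.0618, edgeR) and on both limma scales (0.69 and 0.25). The median of Neurod1 in these nuclei was 2.87 TPM, close to the 2.66 of all adult libraries outside the cerebellum. Olig2 was at 41.8, 38.5 and 38.4 TPM in PB, 45.1, 45.8, 36.3 and 45.8 in NTS, and 38.4, 46.8 and 26.3 in DVC. The log2 fold change of 1.01 ± 0.10 (adjusted p = 6.59e-12, edgeR) was at the fold limit, and leaving out any of 5 libraries (the first or second of DVC, the second or the fourth of NTS, the first of PB) put it at 0.93 to 1.00. That call was also lost with 2 pooled groups (0.80) and on both limma scales. VTA had 2 higher and 1 lower, against 6.88% and 3.65%, and its Olig2 was at 21.2, 49.1 and 35.6 TPM (1.13 ± 0.17, adjusted p = 2.16e-07, edgeR), lowest in the library with the high mitochondrial share. This Olig2 call in VTA was lost with limma on log2(TPM + 0.5) and log2(TPM + 0.1), at 0.59 and 0.60. Without the second VTA library Neurod4 was called there too (1.62). The 5 myelin genes were all called higher in the hindbrain nuclei and in VTA.

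**Figure D5:**
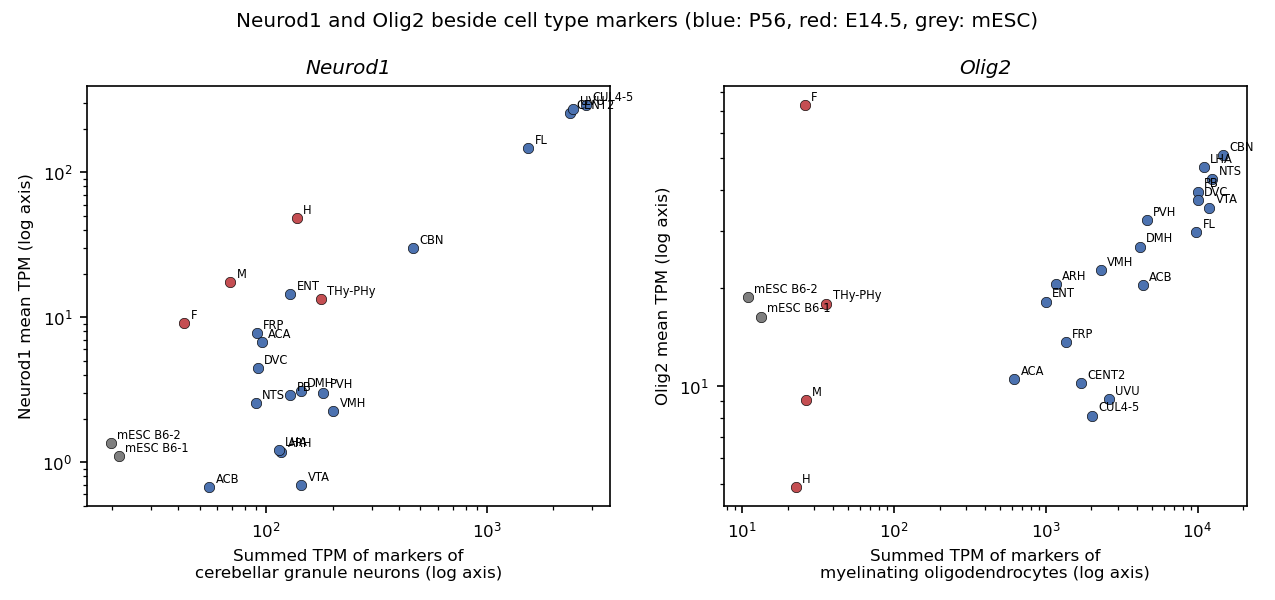
Mean TPM of Neurod1 against the summed TPM of 5 granule neuron markers, and of Olig2 against that of 5 myelin markers, on log axes, with 1 point for each of the 24 groups (blue adult, red embryonic, grey mESC). The 4 lobules lie at the top right for Neurod1, and F is at 72.9 TPM of Olig2 with 26.0 TPM of myelin markers.

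Neurog2 was detected at a low level in part of the adult brain. It was at 1.34, 1.89, 1.85 and 1.53 TPM in DMH, 1.97 and 1.32 in PVH, 1.13, 1.37 and 1.31 in LHA, and 1.498 and 0.446 in VMH. ARH differed, at 0.0515, 0.0865 and 0.0487 TPM, from 1 or 2 counts a library. The hypothalamus had 2 genes higher and 1 lower, against 6.11% and 2.74%, and Neurog2 was higher by 1.19 ± 0.29 (adjusted p = 4.10e-04, edgeR), or 0.96 without the first VMH library. In VTA it was at 0.697, 1.55 and 1.59 TPM on 25 to 38 counts a library, and was called higher (2.25 ± 0.30, adjusted p = 2.87e-08, edgeR). With limma on log2(TPM + 0.5) both Neurog2 calls were lost, at 0.79 in the hypothalamus and 0.88 in VTA. The gene lower in both was Neurod1, at 0.565 to 3.41 TPM in the hypothalamus (-2.98 ± 0.19) and 0.470 to 0.986 in VTA (-3.10 ± 0.41). The high lobules are part of the other adult regions here. The median of Neurod1 was 2.24 TPM in the hypothalamus and 0.640 in VTA, beside 2.66 over all adult libraries outside the cerebellum.

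The cortical regions had 1 gene higher, Hes5, and 1 lower, Neurog2, against 8.18% and 7.95%. Neurog2 was at 0.0858 to 0.567 TPM (-1.04 ± 0.31, adjusted p = 0.00346, edgeR), with 5 of the 9 cortical libraries at or under 3 counts. The call was lost without the first ACA, the third ENT or the third FRP library, at -0.90 to -0.97. It was also lost with limma on log2(TPM + 0.5) and log2(TPM + 0.1), at -0.57 and -0.96. Neurod1 was at 14.0, 12.7 and 16.6 TPM in ENT and 5.47 to 10.1 in FRP and ACA, and was not called (0.26 ± 0.17). With 2 pooled groups its value turned to -2.79 (adjusted p = 0.0365, edgeR). ACB had 2 genes higher and 2 lower, against 7.30% and 5.49%. Hes5 was higher and Neurod1 lower, at 0.0451, 0.564 and 1.42 TPM (-3.76 ± 0.43, adjusted p = 2.41e-10, edgeR). The median of Neurod1 over all adult libraries outside the cerebellum was 2.66 TPM. The other calls, Neurog1 higher and Neurog2 lower, rested on 5 and 4 counts over the 3 libraries, at or under the limit of detection in each. All 5 cycling markers were called higher in ACB, with sums of 8.13 to 24.2 TPM against 1.08 to 6.63 in the other adult libraries, and their part was not tested.

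Ordering the 24 groups by mean TPM seldom separated neighbours: of 23 neighbouring pairs for each gene, the libraries overlapped in 19 to 22. Neurod1 ran from CUL4-5 (292 ± 17.1, SD, n = 4) through UVU (273 ± 57.7, n = 3), CENT2 (255 ± 67.1, n = 4) and FL (148 ± 32.7, n = 4) to H (48.4 ± 15.98, n = 3), and of these steps the one from FL to H was apart. Notch1, Dll1 and Hes5 shared the order F, M and THy-PHy, where the step from F to M was apart. H came next for Notch1 and Dll1. For Hes5 the next places were held by PVH (31.9 ± 5.11, n = 2) and ACB (31.2 ± 0.665, n = 3). Neurog2 went from F to M, THy-PHy, H and DMH, apart at each step but that from M to THy-PHy. Atoh1 was apart from H to M and from M to THy-PHy. Neurog1 and Neurod4 were highest in M. Olig2 went from F to CBN, and that step was apart.

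The genes with the most similar pattern were ranked by Pearson's r of log2(mean TPM + 1) over the 24 groups, among 19820 genes with at least 1 TPM in a group. Since regions share animals and stage, r is a description. Hes5 was closest to Nrarp, another Notch target (0.952), Plppr3 (0.939) and L3mbtl3 (0.938). Neurog2 was closest to Fam162b (0.958), Mfng, a glycosyltransferase that modifies Notch (0.9503), and Nes, the intermediate filament of neural progenitors (0.948). Neurog1 was closest to Gpc2 (0.974), Veph1 (0.973) and Fam162b (0.972). Neurod4 was closest to Draxin, an axon guidance protein (0.9495), Gm5483 (0.949) and Nhlh1, a bHLH factor of newborn neurons (0.946). Atoh1 was closest to Otor (0.987), Stfa2l1 (0.975) and Oc90 (0.971), of which Otor and Oc90 are known from the inner ear. Dll1 was closest to Dchs1 (0.954), Kif26a (0.952) and Dpysl5 (0.951), and Notch1 to Hmgn2 (0.966), Rcbtb2 (0.955) and AC154583.1 (0.948). Neurod1 was closest to 1190002N15Rik (0.923), Gdf10, a Bergmann glia gene (0.920), and Gm16574 (0.920), each highest in a lobule. Olig2 had the least similar partners, Rffl (0.796), Gltp (0.778) and Msmo1 (0.773).

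The rest of the pathway was described with 6 lists of 66 genes that include the 9. In the embryo against the adult, beside 17.9% of all genes higher and 19.9% lower, 11 of 18 proneural and neural bHLH factors were higher and 2 lower (median log2 fold change 3.70), with Nhlh1 at 8.65 ± 0.24 and Ptf1a, a factor of inhibitory cerebellar neurons, at 4.91 ± 0.52. Of the 12 bHLH factors outside the 9 genes, 7 were higher and 2 lower. Of 8 Notch ligands 5 were higher and 0 lower (median 1.53), among them Dll3 (3.96 ± 0.12). Of 4 receptors 3 were higher (median 1.74), with Notch2 at 1.84 and Notch3 at 1.65. Of 13 nuclear effectors and targets 7 were higher and 1 lower (median 1.54). The lower one was Hes3, at -2.58 ± 0.54. Of 16 processing and modulator genes 1 was higher, Mfng (3.27 ± 0.10), and 2 lower (median 0.18). Of 7 E proteins and Id inhibitors 3 were higher and 1 lower (median 0.76), led by Tcf3 at 2.61. Outside the 9 genes 4 of 7 ligands, 2 of 3 receptors and 6 of 12 effectors and targets were higher.

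In mESC against the embryo, beside 26.8% of all genes higher and 29.0% lower, all 8 ligands were lower (median -5.75), and 14 of 18 bHLH factors were lower and 1 higher (median -4.93). Of the nuclear effectors and targets 8 of 13 were lower and 1 higher (median -3.85). Of the processing and modulator genes 6 of 16 were lower and 0 higher (median -0.61). Outside the 9 genes 7 of 7 ligands, 10 of 12 bHLH factors and 7 of 12 effectors and targets were lower. In H against THy-PHy, beside 4.35% of all genes higher and 1.94% lower, 7 of 18 bHLH factors were higher and 3 lower (4 and 1 of the 12 outside the 9 genes), with Olig3, a factor of the dorsal hindbrain and rhombic lip, at 4.06 ± 0.73, and Neurog3 at a mean of 4.26 TPM in THy-PHy and 0 in H. Of the 13 effectors and targets 1 was higher and 1 lower there. In the lobules, beside 8.20% of all genes higher and 9.75% lower, 2 of the 13 effectors and targets were higher, 3 lower and 8 not called (median 0.13). Among them Hes3 was higher (7.45 ± 0.16) and Nrarp lower (-2.66 ± 0.13). Of 18 bHLH factors 5 were higher and 3 lower there (median 0.40), and Neurod2 (4.43 ± 0.14) and Atoh7 (4.23 ± 0.15) were among the higher ones.

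For 6 of the 9 genes 1 transcript is annotated in the transcript table. Notch1-201 held 89.4% of adult and 93.3% of embryonic Notch1 TPM, and Hes5-201 held 76.7% and 72.8% of Hes5, the rest being the processed transcript Hes5-202. Dll1-201 held 48.4% of adult and 55.4% of embryonic Dll1 TPM, the protein-coding Dll1-205 held 21.8% and 8.23%, and the retained intron Dll1-204 held 16.8% and 22.6%. These shares rest on single reads of 33 cycles. No exon of another annotated gene overlapped those of the 9 genes.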

How the data were processed

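Poly(A) RNA was sequenced as single reads of 33 cycles after 12 cycles of PCR. The authors called bases with CASAVA 1.8.2 and estimated transcript abundance with Kallisto (fragment length 120, SD 20) on the GRCm38 cDNA set, and they deposited estimated counts and TPM per transcript and TPM per gene. Per the file headers each table has 1 column for each of the 70 libraries. Kallisto shares reads between transcripts of similar sequence, so estimated counts need not be whole.

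Here the deposited estimated counts were summed per gene with the names of GENCODE release M21 and rounded. Of 109282 transcripts 107987 (98.8%) were matched, and unmatched ones held 0.42% to 0.77% of the counts. Levels are the deposited TPM. The 70 libraries were fitted in 1 model with a term per region in edgeR 4.0.16 (TMM, filterByExpr, quasi-likelihood test, R 4.3.3), which left 19980 genes. P-values were adjusted by the Benjamini-Hochberg method over all genes, and a SE is the fold change divided by the root of F. Stages and anatomical groups were compared as means of their regions. Brain libraries are pools of animals and mESC libraries samples of 1 clone each. The p-values cover the spread between such samples, estimated in 1 fit over all 70 libraries. They do not measure the spread within the 2 regions of an embryonic pair alone. With only the libraries of H and THy-PHy, the adjusted p was 0.0624 for Neurod1 and 0.259 for Olig2 (edgeR). Alternatives were DESeq2 1.42.0, limma 3.58.1 on log2(TPM + 0.5) and log2(TPM + 0.1), other scaling, filter, samples and terms, and leaving out libraries. The procedure was tested on simulated independent libraries with the same spread for all genes. That test does not cover libraries that share animals or differ in spread. No 2 replicates were duplicates: the chi-square per gene was at least 2.59 over 74 pairs, and 53.7 to 182.6 in H. The genes whose pattern was most like a member were the 3 with the highest r, and in each pathway list the called genes with the largest changes were named. The members and lists were chosen with earlier results of these data known.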

Additional observations from a re-analysis of the deposited data

Results flagged for a closer look

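In 39 tests of a gene in a region with 4 libraries, 7 had 1 library whose gap to the nearest other was over Dixon's 95% critical share of the range. For 4 of them the library held 1 to 3 counts and the others 0, where any count passes, so that the chance rate of the test does not apply: Neurog1 in the third CUL4-5 library (0.221 TPM, 3 counts) and in the first FL library (0.0800 TPM, 1 count), Neurod4 in the first CENT2 library (0.0694 TPM, 2 counts) and Atoh1 in the second FL library (0.0530 TPM, 1 count). The other 3 lay in NTS, under a test that flags about 1 in 20 groups by chance. Olig2 was at 36.3 TPM in the third NTS library (797 counts) against 45.1 to 45.8 in the others. In the fourth, Hes5 was at 7.47 TPM (59 counts) against 5.41 to 5.64, and Notch1 at 11.7 TPM (956 counts) against 10.8.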

How the results depend on the processing

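Of 108 counts of called members under other settings, 93 were within 1.5 times the reported count and 69 were identical to it. With only the libraries of the groups compared the counts were 1 for H against THy-PHy, 0 for M against THy-PHy and 0 for M against H. Adding a replicate block to that fit gave 1, 0 and 4, the last without Neurog2 (1.41, adjusted p = 0.0529, edgeR). With limma on log2(TPM + 0.5) the counts were 3 for M against THy-PHy, 1 for the cortical regions, 1 for the hindbrain nuclei, 2 for ACB and 1 for VTA, and with log2(TPM + 0.1) they were 2, 1 and 1 for the first 3. With 2 pooled groups the hindbrain count was 1, and Neurod1 turned to -1.16 in the embryo against the adult and to -2.79 in the cortical regions. Without the first H library M against H had 3. Leaving out each library other than F in turn gave 6 to 7 calls in the embryo against the adult, 7 to 7 in mESC, 3 to 7 in H against THy-PHy, 0 to 2 in M against THy-PHy, 3 to 7 in M against H, 4 to 4 in the lobules, 1 to 2 in the cortical regions, 2 to 3 in the hypothalamus, 2 to 3 in the hindbrain nuclei, 3 to 4 in CBN, 4 to 4 in ACB and 3 to 4 in VTA. Without F the counts were 9 in the embryo against the adult, which added Atoh1 and Olig2, and 8 in mESC, which added both and lost Notch1. In the adult comparisons only libraries of the named group were left out. The first H library, the first VTA library and the block with only the groups compared were added after seeing the data.

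The replicate numbers are not stated to mark a shared animal or batch, and collection batch was not modelled. The correlations of same-numbered libraries were -0.192, 0.142 and -0.19 in H and THy-PHy, -0.0551 and -0.0278 in M and THy-PHy, and 0.03 and 0.0352 in M and H. With the replicate block in the fit of all libraries the counts were 5, 1 and 5 for H against THy-PHy, M against THy-PHy and M against H. Limma moved the median of all genes in VTA by -0.47 and -0.39, in mESC by -0.31 and -0.23, and in M against H by 0.22 and 0.18, while RLE size factors and DESeq2 moved it by 0.14 and 0.15 in mESC. Depth limits several genes in the adult, since Neurog1 and Atoh1 lay at or under 3 counts in all 57 libraries, Neurod4 in 28 and Neurog2 in 16. The cause of these changes was not tested.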
